A study of Homo sapiens with 2 samples.

Results

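The genes described are the splicing factors and related RNA-binding proteins of the SRSF, HNRNP and RBM families, as measured in HepG2, a line of human hepatocellular carcinoma cells. They were chosen by a rule that uses names only but was set with earlier results of these data known. It takes every gene of the probe annotation whose symbol starts with SRSF and a digit, with HNRNP, or with RBM and a digit. Pseudogenes and antisense or divergent transcripts were left out. This gave 75 of 21357 annotated genes, of which 12 are SRSF, 26 HNRNP and 37 RBM genes. The cells had received either Padma 28, a mixture of powdered herbs with camphor and calcium sulphate that was extracted in aqueous ethanol and given at 218 μg/ml, or its solvent, 0.9% ethanol (EtOH), and were taken after 18 h. Both groups were the same cell line in the same growth medium. Each group was 1 array of RNA from 3 pooled cultures. Without replicate arrays no test and no error could be computed, and effects of the extract and of the individual pools cannot be told apart. The labels put the treatment 6 h after seeding, and the methods of the paper put it later.

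SR proteins (SRSF) carry RNA recognition motifs and a tail rich in arginine and serine, bind exonic enhancers and help to recruit the spliceosome once their tail is phosphorylated. Heterogeneous nuclear ribonucleoproteins (HNRNP) coat nascent RNA, and many of them block splice sites or silence exons. The RBM symbol only names an RNA recognition motif, and its bearers range from spliceosome subunits to factors of RNA editing and ribosome assembly, so that not every member is a splicing factor. Many SR and HNRNP genes are known to make several transcript forms, through exons that carry a stop codon, retained introns and alternative ends, which lets these proteins limit their own amount. A probe set reads one stretch of a transcript, so that probe sets of the same gene can read different forms. The sources used here do not say which exon, intron or end a given probe set reads.

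Values are log2 expression values, and differences were taken as Padma 28 minus EtOH. A probe set was taken as above background from 2 log2 units over the most frequent value of the array, at 4.35 with Padma 28 and 4.25 with EtOH. Levels of different probe sets are not read as amounts of RNA, since each hybridises with its own strength. The brightest probe set of a gene, by the mean of both arrays, was used to represent that gene. Probe sets were also grouped by rank within the gene and by level, and such groups mix level with strength of hybridisation. The liver markers albumin, alpha-fetoprotein, apolipoproteins A1 and B, transferrin, antitrypsin, transthyretin and fibrinogen beta were all above background, between 12.84 and 16.52 with Padma 28 and between 13.28 and 16.62 with EtOH. The leukocyte markers PTPRC and CD3E were below background on both arrays. The endothelial marker PECAM1 was at 6.81 with Padma 28 and 6.49 with EtOH and the collagen gene COL1A1 at 6.71 with Padma 28 and 6.74 with EtOH, both above background. In such bulk RNA, fewer cells that express a gene and less of its RNA per cell cannot be told apart.

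Of the 75 genes, 65 had a probe set of their own and 59 had at least 1 above background. These 65 genes held 220 probe sets, of which 182 were above background on at least 1 array and 178 on both. By their brightest probe set, the splicing factor genes differed little between the treatments. Of the 59 genes none was more than 1.5-fold higher or lower, where 6.5% of all 10364 genes above background were past 1.5-fold upwards and 2.9% downwards, and 1.58% and 0.704% past 2-fold. The brightest probe sets ranged from -0.51 for RBM3 to 0.57 for RBM19. RBM19 did pass 1.5-fold upwards once each array was centred on its median. The median difference was -0.04 over 10 SRSF genes, -0.05 over 19 HNRNP genes and 0.02 over 30 RBM genes. Over all genes above background it was 0.06. With each array centred on its median, the SRSF and HNRNP medians were 0.02 and 0.01. The array medians differed by -0.054, Padma 28 minus EtOH, and this centring moves every difference by the same amount, all genes included. It therefore leaves the distance to all genes as it was. With loess centring or repeated quantile normalization the RBM median was -0.01.

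The picture differed when every probe set was counted. Of the 182 probe sets, 5 were more than 2-fold lower with Padma 28 and none was higher, where 0.99% of the 18885 probe sets above background of all genes were lower and 1.51% higher. Past 1.5-fold in the measured values, 15 probe sets of 14 genes were lower and 2 were higher, which is 8.24% and 1.10%. One of the 15, of RBM48, was below background with Padma 28 and is bounded only at 1.06-fold, so that 14 were lower among probe sets above background on both arrays. The counts and shares given for the 15, here and over all genes, use the measured values. Over all genes the shares were 4.1% lower and 6.23% higher. In each of these 14 genes the brightest probe set lay between -0.37 and 0.16, and in 7 of them it was above 0.

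**Figure D1:**
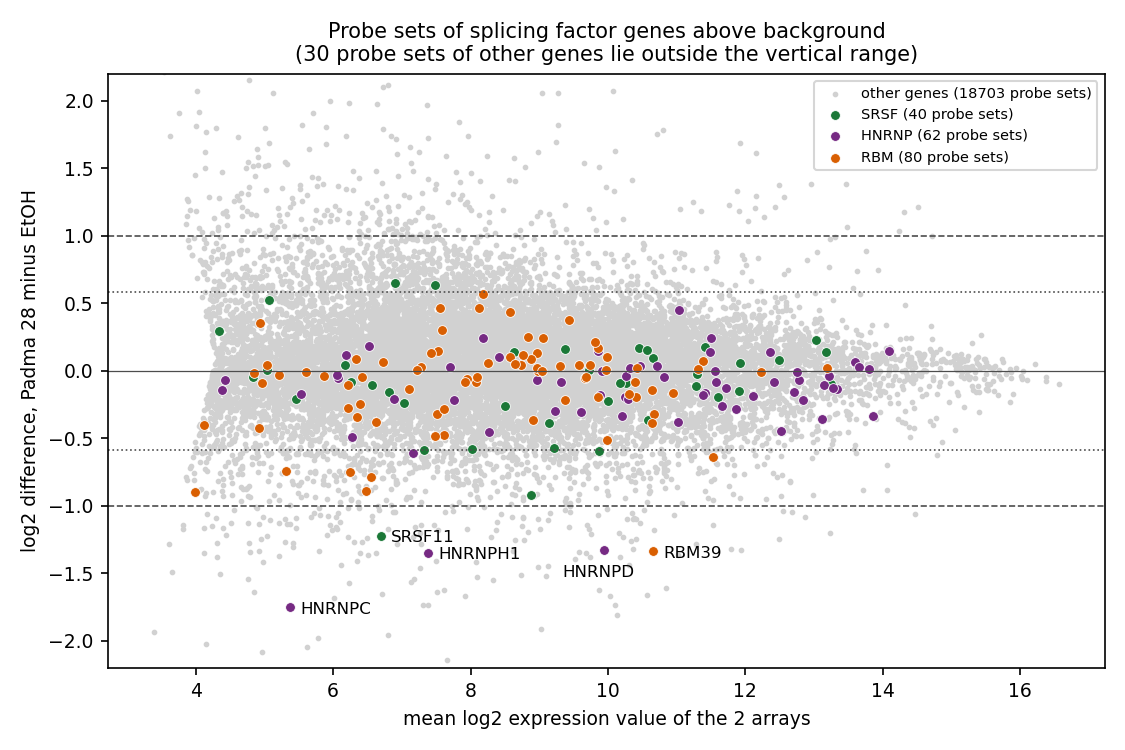
Mean log2 expression value of both arrays (horizontal axis) and log2 difference, Padma 28 minus EtOH (vertical axis), from 1 array per treatment; each point is a probe set above background, coloured by family or grey for other genes, dotted lines mark 1.5-fold and dashed lines 2-fold. The 5 labelled probe sets of HNRNPC, HNRNPH1, RBM39, HNRNPD and SRSF11 are more than 2-fold lower, and no coloured point is more than 2-fold higher.

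RBM39 is a splicing factor related to U2AF, which recognises the 3′ splice site, and also a coactivator of transcription. The annotation gave it 4 probe sets of its own, all above background on both arrays, which split into a level and a lower pair. Probe sets without a gene in the annotation were not looked at, so that a further RBM39 probe set among them would be missed. Probe set 207941_s_at was at 13.21 with Padma 28 and 13.18 with EtOH, a difference of 0.02, and 208720_s_at was at 12.22 with Padma 28 and 12.23 with EtOH. Probe set 226404_at was at 9.99 with Padma 28 and 11.33 with EtOH, which is 2.53-fold lower. The fourth, 227223_at, was at 11.22 with Padma 28 and 11.85 with EtOH, 1.55-fold lower. With each array centred on its median, the difference of -0.64 on 227223_at became -0.58, just under 1.5-fold. Both lower probe sets lay far above the background limit on both arrays.

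Of the SRSF genes, 3 of 10 had probe sets 1 log2 unit or more apart, against 3.22% of 5064 genes over the whole array. SRSF11, SRSF3 and SRSF10, the 3 genes, had 4, 5 and 5 probe sets above background. Over all genes the share was 7.52% with 4 probe sets and 5.98% with 5. SRSF10 only just passed the limit, with probe sets 1.01 apart. The brightest probe sets of these 3 genes differed by -0.11 to 0.14. SRSF11, known as p54, was nearly level on 200686_s_at, with 13.19 with Padma 28 and 13.29 with EtOH. Its probe set 236948_x_at was at 6.09 with Padma 28 and 7.31 with EtOH, 2.33-fold lower, while 200685_at went the other way with 5.33 with Padma 28 and 4.81 with EtOH. With 64 added to both linear values, the difference of -1.22 on 236948_x_at became -0.75. The remaining one, 213742_at, was at -0.58, close to the 1.5-fold line. SRSF11 therefore held probe sets on both sides of 0, spread over more than 1.5 log2 units in all.

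SRSF3, the smallest SR protein, had 3 probe sets slightly above 0, at 0.14, 0.08 and 0.17, and 235324_at at -0.11. In contrast, 232392_at was at 8.43 with Padma 28 and 9.35 with EtOH, 1.89-fold lower. SRSF10, which turns into a general splicing repressor when it loses its phosphates, showed the opposite pattern. Its 4 brighter probe sets lay between -0.36 and -0.09, whereas 225348_at was at 7.23 with Padma 28 and 6.58 with EtOH, 1.57-fold higher. SRSF8 resembled it, with 228760_at at 7.80 with Padma 28 and 7.16 with EtOH and the other 3 probe sets between -0.21 and 0.01. These were the 2 probe sets of the members that passed 1.5-fold upwards.

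The other SRSF genes disagreed less. SRSF7, an SR protein with a zinc knuckle, was at 0.06 and 0.16 on 2 probe sets, while 213649_at was at 9.58 with Padma 28 and 10.17 with EtOH, 1.51-fold lower. SRSF6 had 208804_s_at at 10.65 with Padma 28 and 10.49 with EtOH and 206108_s_at at 7.02 with Padma 28 and 7.61 with EtOH, so that its 2 probe sets pointed in opposite directions. All 3 probe sets of SRSF5 were below 0, at -0.15, -0.19 and -0.58. SRSF1, the founding member of the family, had 8 probe sets between -0.39 and 0.23, with 13.15 with Padma 28 and 12.92 with EtOH on the brightest. SRSF4 lay between -0.26 and 0.04 on 4 probe sets. SRSF12 was near the background limit, at 4.81 with Padma 28 and 4.86 with EtOH on 1552381_at, and was at least 1.18-fold higher on the other, 239295_at, which was below background with EtOH.

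**Figure D2:**
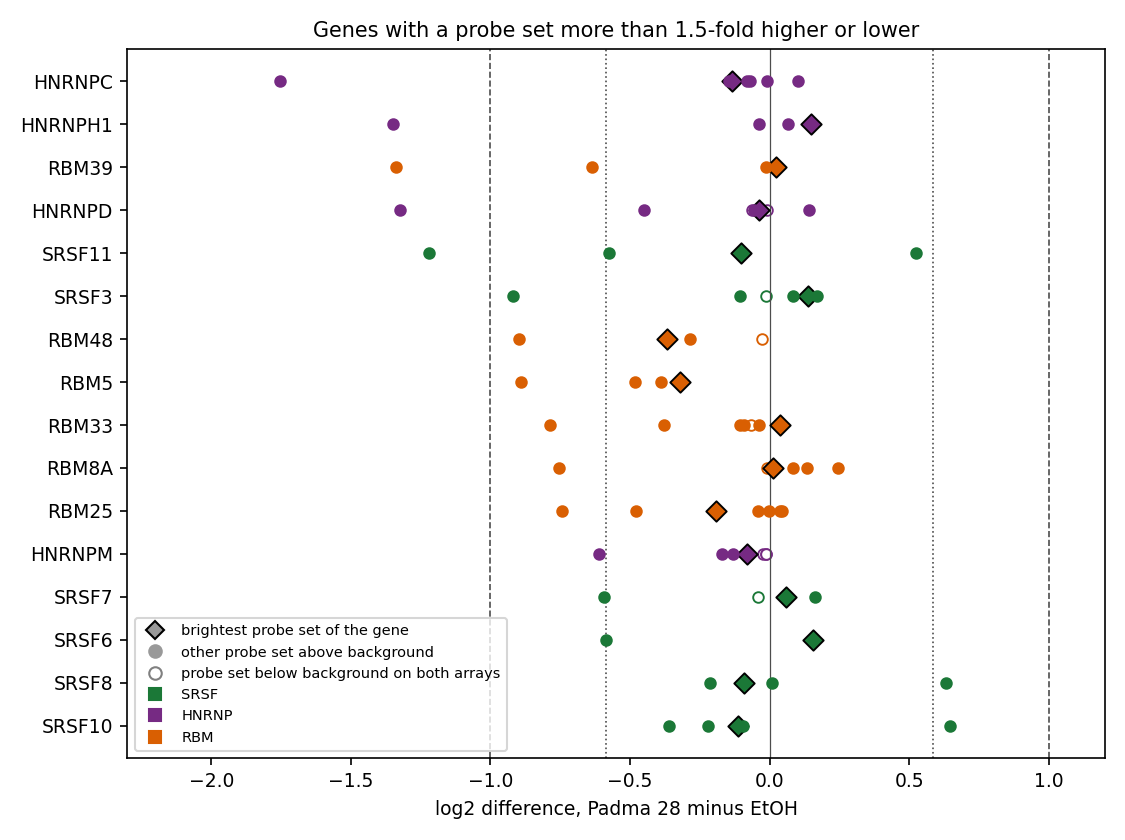
Log2 difference, Padma 28 minus EtOH (horizontal axis), of every probe set of the 16 genes with a probe set more than 1.5-fold higher or lower, 1 array per treatment; a diamond marks the brightest of each gene, filled circles the others above background and open circles those below it on both arrays, dotted lines mark 1.5-fold and dashed lines 2-fold. The diamonds lie between -0.37 and 0.16, while single circles of HNRNPC, HNRNPH1, RBM39, HNRNPD and SRSF11 lie beyond -1, and the lowest circle of RBM48 is below background with Padma 28 and drawn at its measured value.

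Among the HNRNP genes, 3 of 17 with several probe sets above background had them 1 log2 unit or more apart. Over the whole array this was 3.22% of 5064 genes. HNRNPC, HNRNPD and HNRNPH1, the 3 genes, had 7, 5 and 4 probe sets above background. Over all genes the share was 12.7% with 6 or more probe sets, 5.98% with 5 and 7.52% with 4. In each of the 3 HNRNP genes a single probe set was more than 2-fold lower. HNRNPC binds uridine tracts and keeps cryptic exons from being spliced in. Its probe set 235500_at was at 4.50 with Padma 28 and 6.25 with EtOH, 3.37-fold lower. With Padma 28 this value lay just over the background limit of 4.35, and the difference of -1.75 became -1.26 with 16 and -0.70 with 64 added to both linear values. The 5 brighter probe sets of HNRNPC lay between -0.13 and 0.10, with 13.26 with Padma 28 and 13.40 with EtOH on the brightest. The dimmest, 1568941_a_at, was below background with Padma 28 and at least 1.07-fold lower.

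HNRNPH1, which binds runs of guanosine, was at 14.17 with Padma 28 and 14.02 with EtOH on its brightest probe set, and at 0.07 and -0.04 on 2 others. Only 213472_at stood apart, at 6.71 with Padma 28 and 8.05 with EtOH, 2.55-fold lower. That difference of -1.35 became -0.97 with 64 added to both linear values. HNRNPD, also known as AUF1, binds AU-rich elements and promotes the decay of short-lived mRNAs. Its probe set 213359_at was at 9.29 with Padma 28 and 10.61 with EtOH, 2.50-fold lower and well above background. Next to it, 209330_s_at was at 12.30 with Padma 28 and 12.75 with EtOH, and the 3 others above background were at -0.04, 0.14 and -0.06. A further 4 probe sets of HNRNPD were below background on both arrays.

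**Figure D3:**
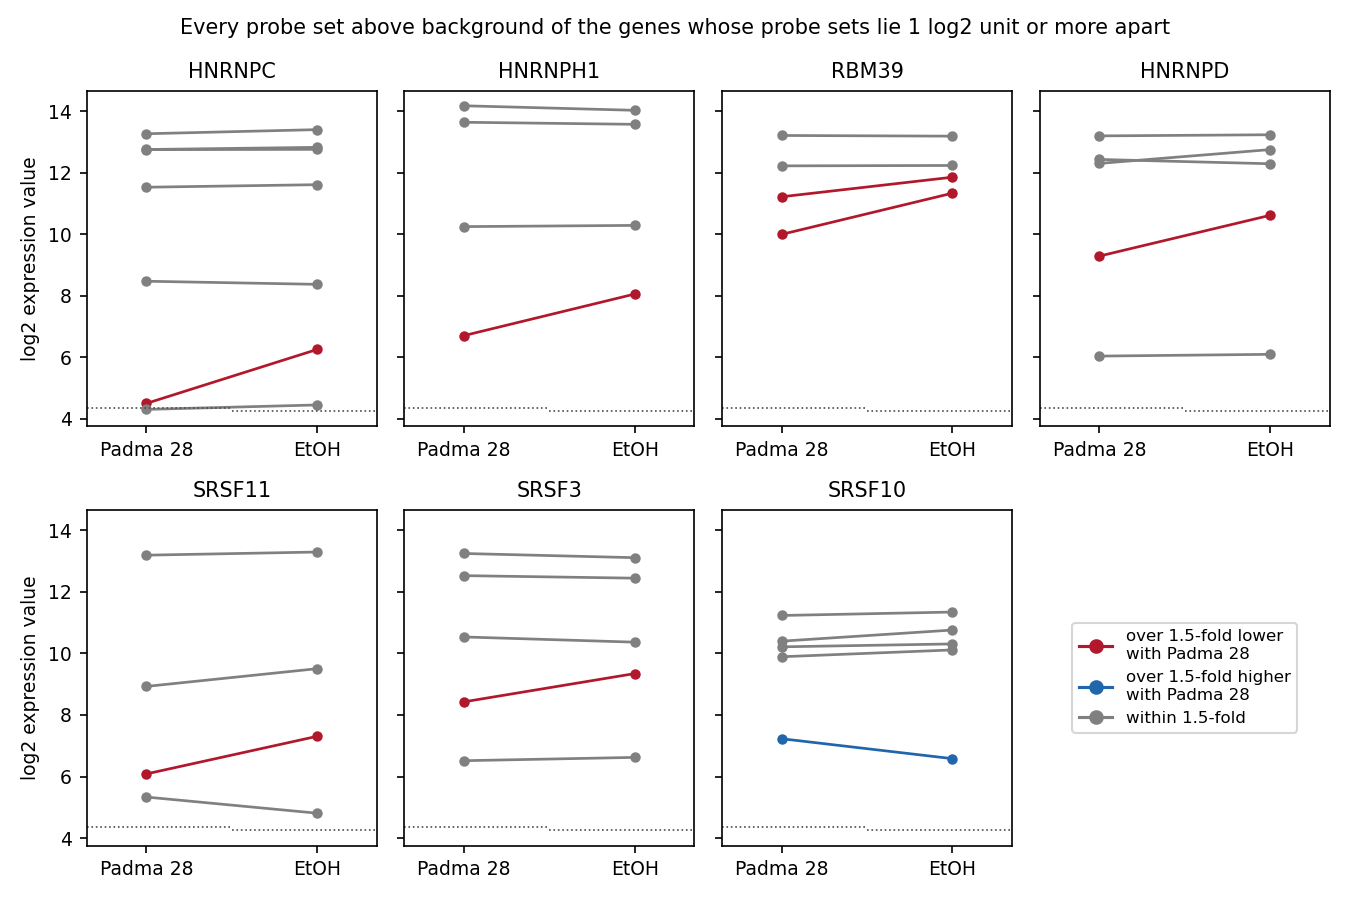
Log2 expression value (vertical axis) with Padma 28 (left) and EtOH (right) of each probe set above background of the 7 genes whose probe sets lie 1 log2 unit or more apart; each line joins the 2 arrays for a probe set, red is more than 1.5-fold lower and blue more than 1.5-fold higher with Padma 28, and dotted lines are the background limits of 4.35 and 4.25. HNRNPC, HNRNPH1, HNRNPD, SRSF11 and SRSF3 have a single red line each, in RBM39 both red lines lie under the grey ones, and in SRSF10 the single coloured line is blue.

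Several HNRNP genes were slightly lower on each of their own probe sets above background, by amounts that did not reach 1.5-fold on the brightest. HNRNPA2B1, which also guides the sorting of microRNAs, was at 13.69 with Padma 28 and 14.03 with EtOH, and its 4 probe sets ranged from -0.34 to -0.07. HNRNPDL, a relative of HNRNPD, ranged from -0.36 to -0.04 on 5 probe sets, and the exon silencer HNRNPA1 from -0.45 to -0.28 on 3. However, 200016_x_at, which HNRNPA1 shares with a pseudogene, was at -0.000338, and 213356_x_at, which it shares with pseudogenes and its close copy HNRNPA1L2, at -0.01, so that the own and the shared probe sets of HNRNPA1 did not give the same difference. HNRNPU, a nuclear scaffold protein, ranged from -0.38 to -0.13, and HNRNPA3 from -0.20 to -0.16, with 3 further probe sets shared with its pseudogene between -0.14 and 0.0016. HNRNPM had 214918_at at 6.85 with Padma 28 and 7.47 with EtOH, 1.53-fold lower, and its other 3 probe sets above background between -0.17 and -0.08.

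The remaining HNRNP genes lay close to the solvent control. HNRNPH3 was the only gene of the family with every probe set above 0 among those with 3 or more, from 0.02 to 0.45, with 11.27 with Padma 28 and 10.81 with EtOH on the brightest. HNRNPAB was at 11.62 with Padma 28 and 11.37 with EtOH, and HNRNPUL2 at 8.31 with Padma 28 and 8.07 with EtOH. The poly-C binding HNRNPK was at 13.81 with Padma 28 and 13.79 with EtOH, and HNRNPUL1 at 10.19 with Padma 28 and 10.40 with EtOH. HNRNPF, HNRNPL and HNRNPR differed by -0.05, -0.08 and 0.03 on their brightest probe sets. HNRNPLL was level on its brightest probe set, at 11.56 with Padma 28 and 11.57 with EtOH, and at -0.31 on 225385_s_at. HNRNPA0 differed by 0.14 on its brightest, but by -0.49 on 229083_at.

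In the RBM family, RBM39 was the only gene with probe sets 1 log2 unit or more apart, of 23 with several above background. This is 4.35%, close to the 3.22% of 5064 genes over the whole array, which was not matched for number of probe sets. The probe sets of RBM8A, 0.997 apart, fell just short of the limit. RBM5, a regulator of the splicing of apoptosis genes, was lower on all 4 probe sets. Its brightest was at 10.51 with Padma 28 and 10.84 with EtOH and its dimmest, 230742_at, at 6.03 with Padma 28 and 6.92 with EtOH, 1.85-fold lower. RBM15, which recruits the methylase of N6-methyladenosine, ranged from -0.32 to -0.17 on 5 probe sets, while 232971_at was below background with Padma 28 and allows no fold. RBM48, a factor of minor intron splicing, was at 8.72 with Padma 28 and 9.09 with EtOH, and at least 1.06-fold lower on 221595_at, which was below background with Padma 28. The remaining probe set of RBM48 above background was at -0.28. Among these 3 genes no probe set above background on both arrays had a difference over 0.

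RBM8A, the Y14 subunit of the exon junction complex, RBM25 and RBM33 had 1 probe set each that was more than 1.5-fold lower. For RBM8A, 1554602_at was at 5.87 with Padma 28 and 6.63 with EtOH, 1.69-fold lower, whereas its other 4 were between 0.01 and 0.24. RBM25, a regulator of BCL2L1 splicing, was at 4.94 with Padma 28 and 5.68 with EtOH on 236613_at, 1.67-fold lower, and at -0.48 on 1557081_at. The difference of -0.74 on 236613_at became -0.53 with 16 and -0.28 with 64 added to both linear values. Its 5 brighter probe sets lay between -0.19 and 0.04. RBM33 was at 6.16 with Padma 28 and 6.95 with EtOH on 1554096_a_at, 1.73-fold lower, while its other 5 above background lay between -0.38 and 0.04. RBM3, a protein induced by cold, had the lowest brightest probe set of all members, at 9.74 with Padma 28 and 10.25 with EtOH, and its other probe set was at -0.02.

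The highest differences by brightest probe set in the RBM family were those of RBM19, RBM45, RBM14 and RBM47. RBM19, a factor of ribosomal RNA processing, was at 8.46 with Padma 28 and 7.89 with EtOH, just under 1.5-fold higher, while its second probe set was at 0.04. RBM45 was at 7.79 with Padma 28 and 7.33 with EtOH. RBM14, a paraspeckle protein, was at 8.79 with Padma 28 and 8.35 with EtOH, and its second probe set above background was at 0.46, so that both gave nearly the same difference. RBM47, a cofactor in the editing of the apolipoprotein B mRNA, was at 9.62 with Padma 28 and 9.25 with EtOH on its brightest probe set, but at 0.11 and -0.24 on 2 others. None of these measured values reached 1.5-fold.

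Among the spliceosome subunits of the family, RBM17 ranged from 0.06 to 0.15 on 3 probe sets and RBM22 from -0.06 to 0.25 on 3. The splicing regulators RBM10 and RBM6 ranged from -0.000258 to 0.13 and from -0.14 to 0.05. RBM7, a subunit of a nuclear exosome adaptor, was at 0.02 and 0.35, and RBM28, a nucleolar protein, at 0.21 and -0.05. RBM26 and RBM27 were at -0.08 and 0.17 on their brightest probe sets. The muscle-related RBM24 was at 8.07 with Padma 28 and 8.12 with EtOH, and RBM38, a target of p53, at 8.93 with Padma 28 and 8.84 with EtOH. RBM41 had its 2 probe sets at 0.30 and -0.13 and RBM12B at -0.08 and -0.43. RBM4, RBM4B, RBM12, RBM15B, RBM18 and RBM42 had brightest differences between -0.17 and 0.10.

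For 6 RBM genes, namely RBM11, RBM20, RBM23, RBM34, RBM43 and RBM46, all 8 own probe sets were below background, between 2.01 and 3.41 with Padma 28 and between 2.04 and 3.42 with EtOH, and no fold change is given. RBM34 also shared 2 probe sets with ARID4B that were above background, at 0.18 and 0.20. The 10 genes without a probe set of their own were SRSF2, SRSF9, HNRNPH2, HNRNPA1L2, the HNRNPC copies HNRNPCL1, HNRNPCL2, HNRNPCL3 and HNRNPCL4, and the read-through transcripts RBM14-RBM4 and HNRNPUL2-BSCL2. In all, 20 probe sets were shared between a member and another gene, and 19 of them were above background, with a median difference of -0.01. The 3 probe sets shared by SRSF2 and a microRNA within it were at -0.20, -0.20 and -0.27, and the 2 shared by SRSF9 and GATC at 0.02 and 0.07. HNRNPH2, with its read-through transcript, was at 10.83 with Padma 28 and 10.98 with EtOH, and the probe set common to the 4 HNRNPC copies at 5.02 with Padma 28 and 5.09 with EtOH. The read-through HNRNPUL2-BSCL2 was at 0.56 on a probe set shared with BSCL2 and at 0.03 on one shared with HNRNPUL2. Those of RBM4 and its read-through transcript disagreed, with 200997_at at 10.91 with Padma 28 and 10.88 with EtOH, but 235511_at at 4.79 with Padma 28 and 5.68 with EtOH, the only shared probe set past 1.5-fold, and 213718_at at -0.48. What a shared probe set measured cannot be assigned to a single gene.

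Disagreement between probe sets was counted over the 50 member genes with 2 or more above background. Of these, 7 had probe sets 1 log2 unit or more apart, which is 14.0%, against 3.22% of 5064 such genes over the whole array. The members had more probe sets per gene, and by number the shares were 0% of 17 members and 1.45% of all genes with 2 probe sets, 0% of 12 members and 4.2% of all genes with 3, and 27.3% of 11 members and 7.52% of all genes with 4. With 5 probe sets it was 60% of 5 members and 5.98% of all genes, and with 6 or more 20% of 5 members and 12.7% of all genes. All 7 genes had 4 or more. The median distance between the 2 brightest probe sets of a gene was 0.15 both over the 50 members and over all 5064 genes.

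None of the 50 brightest probe sets of these genes was more than 1.5-fold lower or higher, against 2.9% lower and 4.98% higher over all genes. Of their 123 other probe sets, 15 were lower in the measured values, the RBM48 one among them, which is 12.2%, against 5.55% over all genes, and 2 were higher, which is 1.63%, against 5.89%. The 12.2% was made up of 4 of 30 in SRSF, 4 of 43 in HNRNP and 7 of 50 in RBM genes. By type, 12 of the 15 were plain _at probe sets, which are designed to a single transcript and made up 93 of the 182. This is 12.9% of that type, against 4.61% over all genes. Of the 62 _s_at probe sets, which several transcripts share, 1.61% were lower, against 3.79% over all genes, and of the 23 _x_at probe sets, which may bind related sequences, 4.35%, against 1.65%. Of the 4 member probe sets of the _a_at type, the RBM33 one was lower, against 6.25% over all genes.

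Level on the array moved with this share. Below a mean value of 6, 15% of 20 member probe sets were lower, against 6.04% over all genes, and from 6 to 8, 16.3% of 43, against 4.39%. From 8 to 10 it was 5.88% of 51, against 3.49%, and from 10 to 12 it was 4.55% of 44, against 3.66%. At 12 and over it was 0% of 24, against 2.19%. Probe sets whose target record in the annotation is a RefSeq mRNA were lower in 1 of 35 cases, those with another GenBank record in 10 of 115 and those with none listed in 4 of 32. Over all genes these shares were 3.53%, 4.33% and 4.31%. The part of level, probe set type and target record in the lower values was not tested.

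**Figure D4:**
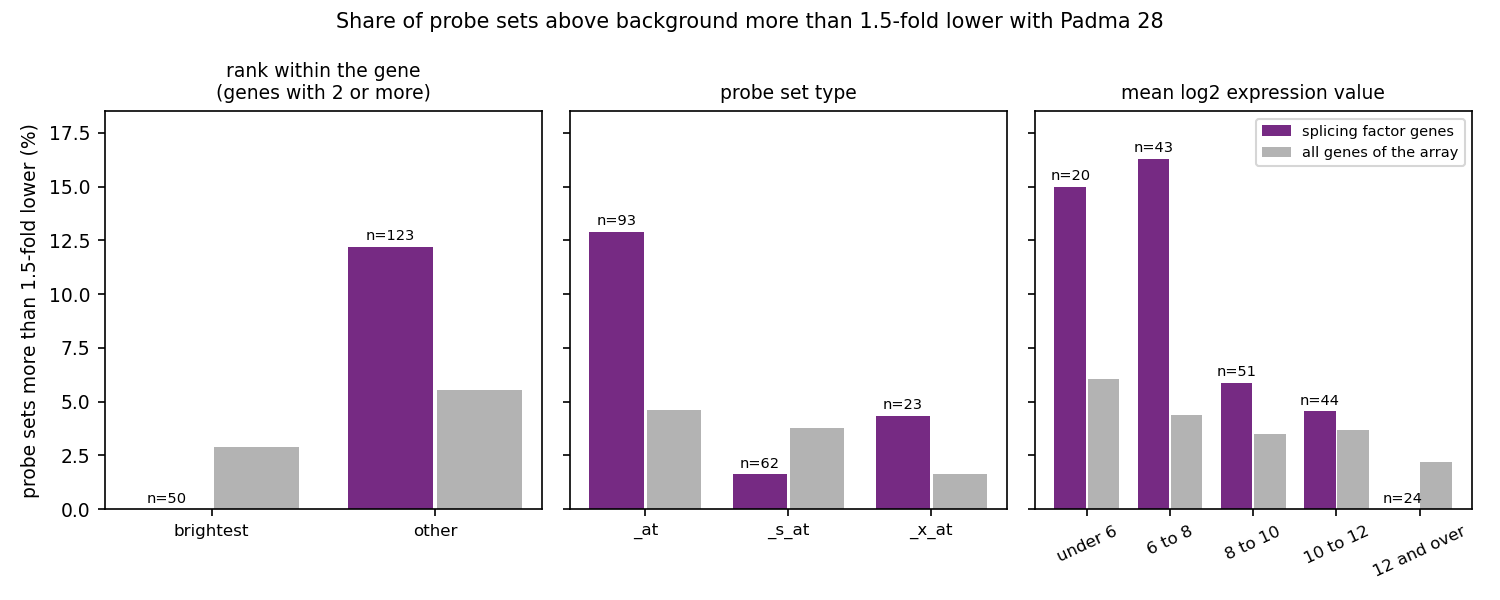
Percentage of probe sets above background that were more than 1.5-fold lower with Padma 28 (vertical axis, from 0), for the splicing factor genes (purple, number of probe sets above each bar) and all genes of the array (grey), by rank within the gene, by probe set type without the 4 of the _a_at type, and by mean log2 expression value. The purple bar is higher for the other probe sets, 12.2% against 5.55%, and absent for the brightest ones.

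Direction within a gene was also counted over the 33 member genes with 3 or more probe sets above background. In 11 of them, 33.3%, every probe set was below 0, against 26.2% of 2159 genes over the array, and in HNRNPH3 and RBM17, 6.06%, every probe set was above 0, against 23.3%. The 11 were HNRNPA1, HNRNPA2B1, HNRNPA3, HNRNPDL, HNRNPM, HNRNPU, RBM5, RBM15, RBM26, RBM48 and SRSF5. For RBM15 and RBM48 this counts a probe set that was below background with Padma 28. Most of these differences were under 1.5-fold. The count of directions was not split by number of probe sets, of which the members had more. It set no least size, so that a difference of 0.02 in HNRNPH3 counted.

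Other genes of the splicing machinery were described by 7 lists. The core of the spliceosome was close to the solvent control, with a median brightest difference of 0.11 over 10 genes of the U1 snRNP and the Sm core, 0.03 over 16 genes of the U2 snRNP and branch site and 0.07 over 21 genes of the tri-snRNP and the Prp19 complex, none of them past 1.5-fold. In each of these lists in turn, the largest difference by brightest probe set was that of SNRPD2, an Sm protein, at 0.38, SF3B3, of the U2 snRNP, at -0.37, and PLRG1, of the Prp19 complex, at 0.56. Among other probe sets of these genes, 1 each of SF3A2 and PLRG1 was more than 1.5-fold higher, at 0.62 and 0.65. The measured values of TXNL4A on 1555461_at also passed 1.5-fold downwards, but it was below background with Padma 28 and allows no fold.

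The kinases that phosphorylate SR proteins went both ways. CLK1 was at 10.57 with Padma 28 and 11.44 with EtOH, 1.82-fold lower on its single probe set. CLK2 was at 9.32 with Padma 28 and 9.81 with EtOH, whereas SRPK2 was at 8.96 with Padma 28 and 8.45 with EtOH on its brightest probe set. Of 7 kinases above background, CLK1 alone passed 1.5-fold by the brightest probe set, and the median was -0.14. Of all genes above background, 2.9% were more than 1.5-fold lower and 6.5% higher. Among 15 SR-related proteins, with a median of -0.08, TRA2A was 1.56-fold lower, at 9.02 with Padma 28 and 9.66 with EtOH, and its 3 other probe sets above background ranged from -0.56 to -0.32. Its paralogue TRA2B was at 12.54 with Padma 28 and 12.18 with EtOH, and ACIN1 at -0.51.

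The list of other splicing regulators held genes that were lower on their brightest probe set and genes whose probe sets disagreed. Over 29 genes the median brightest difference was -0.06, with 2 genes more than 1.5-fold lower and none higher. Of all genes above background, 2.9% were lower and 6.5% higher. Of the 98 probe sets of the 29 genes, 14 were more than 1.5-fold lower, which is 14.3%, and none was higher. Over all genes the shares of probe sets were 4.1% and 6.23%. EWSR1, an RNA-binding protein of the FET family, was below 0 on each of its 4 probe sets, at -0.80 on the brightest and at -1.36 on 229966_at, with 5.83 with Padma 28 and 7.19 with EtOH. MBNL3, of the muscleblind family, was at 11.82 with Padma 28 and 12.52 with EtOH. TIA1, a regulator that binds uridine-rich sites behind 5′ splice sites, differed by -0.47 on its brightest, and was at 5.65 with Padma 28 and 7.06 with EtOH on its dimmest, 1554889_at. The helicase DDX17 differed by 0.03 on its brightest, and was at 5.39 with Padma 28 and 6.53 with EtOH on 230180_at. EWSR1, TIA1 and DDX17 were among the 4 genes of this list with probe sets 1 log2 unit or more apart, of 24 with several. TAF15, also of the FET family, was the other, with 0.14 on its brightest probe set and -0.87 on 227884_at. Over the whole array the share was 3.22% of 5064 genes, from 1.45% with 2 probe sets to 12.7% with 6 or more.

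Of 8 genes of nonsense-mediated decay and the exon junction complex above background, with a median of 0.06, MAGOHB was 2.78-fold higher, at 7.36 with Padma 28 and 5.88 with EtOH, and no other passed 1.5-fold. Of all genes above background, 6.5% were more than 1.5-fold higher and 1.58% more than 2-fold higher. MAGOHB is a partner of RBM8A in the exon junction complex, and the brightest probe set of RBM8A differed by 0.01. MAGOH, also on this list, had no probe set of its own.

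**Figure D5:**
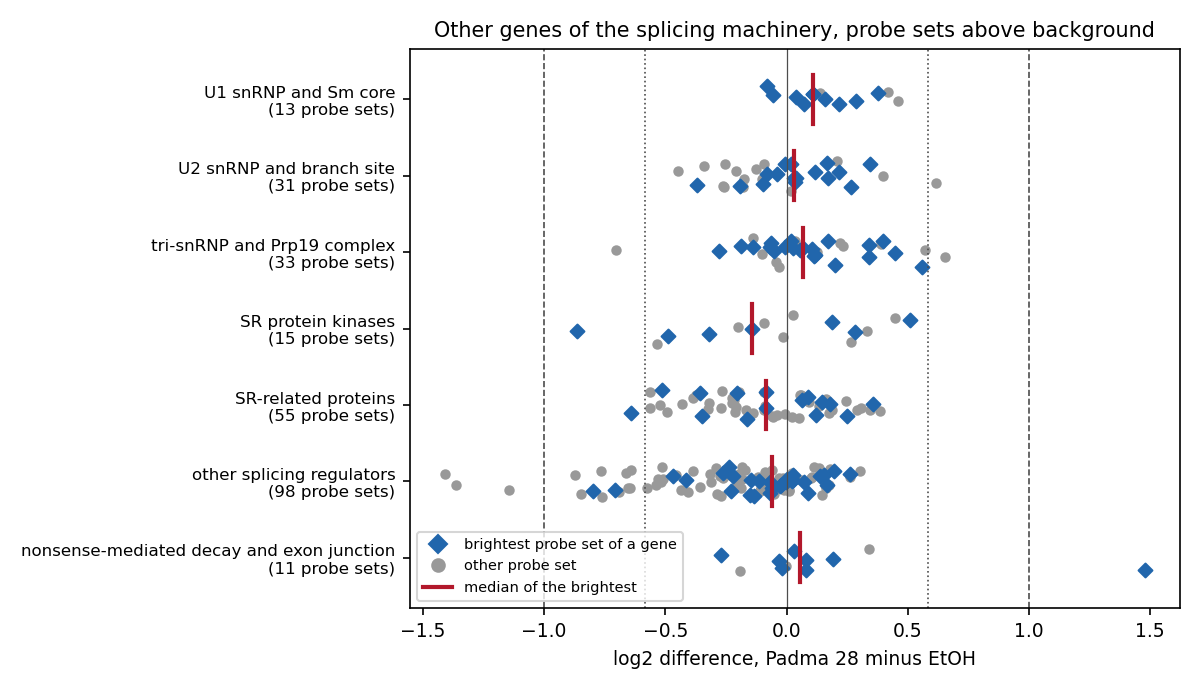
Log2 difference, Padma 28 minus EtOH (horizontal axis), of the probe sets above background of 7 lists of splicing genes, 1 array per treatment; a blue diamond marks the brightest of each gene, grey circles the others, red bars the median of the diamonds, dotted lines mark 1.5-fold and dashed lines 2-fold. Grey circles of the other splicing regulators reach to -1.41, and MAGOHB is the only point above 1. All diamonds of the core snRNP lists lie within 1.5-fold, and their circles reach from -0.70 to 0.65. The lowest of these circles, of TXNL4A, is below background with Padma 28 and drawn at its measured value.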

How the data were processed

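RNA was measured on Affymetrix HG-U133 Plus arrays, 1 per treatment. The authors deposited log2 values of 54675 probe sets, made with GCRMA, which corrects background from the probe sequence and then applies quantile normalization and median polish. GCRMA 2.28.0 under R 2.15.1 is given by the submitters' processing notes. Once sorted, both arrays held nearly the same values, with a largest gap of 0.099 log2 units. The number of arrays limits the precision.

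Padma 28 minus EtOH was computed per probe set, with the 2-fold threshold of the paper's methods and a lower one of 1.5-fold. The most frequent value was found in bins of 0.1. Genes came from the platform annotation, which gives 1 gene for 41097 probe sets, several for 1801 and none for 11777; all 75 symbols were current in RefSeq (GRCh38.p14). The members and lists were chosen with earlier results of these data known. Named were RBM39, all SRSF genes, genes with a probe set past 2-fold or probe sets 1 log2 unit apart, per family the 4 highest and 4 lowest and the 3 brightest, and per list up to 3 with the largest difference; other members were named to account for them, and further list genes after their values were seen. The steps were tested on simulated data. Calculations ran in Python 3.11.15 (pandas 2.3.3, numpy 2.4.6, statsmodels 0.14.6), with plots by matplotlib 3.10.9.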

Additional observations from a re-analysis of the deposited data

How the results depend on the processing

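The alternatives were other background filters, 16 or 64 added to both linear values, median, loess or quantile scaling, and other choices of probe set. With 64 added, 2 probe sets were more than 2-fold lower in place of 5, those of RBM39 and HNRNPD. More than 1.5-fold lower were 7 in place of 15, of HNRNPC, HNRNPD, HNRNPH1, SRSF3, SRSF11 and RBM39, the last with 2. In the same setting, 3 genes in place of 7 had probe sets 1 log2 unit or more apart. That count was 4 without the _x_at and _s_at types. The 2 probe sets more than 1.5-fold higher became 0 with 16 or 64 added and 1 with repeated quantile normalization. They became 3 with each array centred on its median, the added one being the brightest probe set of RBM19. Counted as genes by the brightest probe set in the measured values, 0 passed either threshold in either direction. The count of genes was not repeated with the scalings, and RBM19 passed 1.5-fold with the median one. Adding a constant shrinks differences of dim probe sets by construction. The count of 0 more than 2-fold higher did not move under any of the alternatives. Of the 17 probe sets past 1.5-fold, all kept their sign under the scalings and added constants, and 10 (16 added), 7 (64 added), 13 (median), 17 (loess) and 16 (quantile) stayed past it. The family medians moved by less than the median distance of 0.15 between the 2 brightest probe sets of a gene. No paired analysis was possible because each group has 1 array, and without replicates none could be left out.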

Other observations

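Among the transcripts left out of the families, HNRNPD-DT, which is transcribed away from the HNRNPD promoter, was above background at 7.21 with Padma 28 and 7.09 with EtOH. The pseudogene HNRNPA3P1 was at 4.52 with Padma 28 and 4.59 with EtOH, close to the background limit. RBM33-DT lay at the limit, at 4.24 with Padma 28 and 4.25 with EtOH. RBM26-AS1 and RBM12B-AS1 were below background on both arrays.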
